A study of Homo sapiens with 24 samples.

Results

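The expression of 10 genes of the endoplasmic reticulum folding machinery and its stress response was followed across all 12 treatment and time groups of an RNA sequencing series of HEL cells. They are HSPA5, HSP90B1, DNAJB9, SDF2L1, XBP1, HERPUD1, PDIA4, CALR, DNAJC3 and ERN1, 10 of 34213 genes in the deposited count table. They were chosen by name as genes of the ATF6 and XBP1 arms of the unfolded protein response, with earlier results of these data known. HEL is an established human erythroleukaemia cell line that carries an activating mutation of the kinase JAK2. The drugs given are JAK inhibitors, and how far each of them blocked JAK2 in these cells was not measured. Cells were given 500 nM ruxolitinib, fedratinib, momelotinib, pacritinib or itacitinib, or DMSO, the solvent, and were collected after 48 h or 4 h, with 2 libraries in each group. All groups were cultures of this one line, and the labels do not say whether the paired libraries came from separate cultures, so p-values measure only how far these libraries differ, which may be technical variation.

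The endoplasmic reticulum folds the proteins that a cell secretes or places in its membranes. When unfolded protein accumulates there, 3 membrane sensors respond: ATF6 is cut to release a transcription factor, IRE1 (the product of ERN1) splices the XBP1 message into one that encodes an active transcription factor, and PERK slows translation and favours ATF4. ATF6 and spliced XBP1 switch on the chaperones and the degradation machinery described here. Haematopoietic cells use the same system, and CALR is also one of the genes mutated in myeloproliferative neoplasms. Gene-level counts do not separate spliced from unspliced XBP1, and no protein was measured.

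ATF6 and XBP1 act through short promoter elements, and those of the genes whose RNA levels are described below are shown to place the values on the regulatory sequence. The 250 bases before each RefSeq start (GRCh38.p14) were searched on both strands, and all 10 genes matched an entry of the promoter table. The element called ERSE was searched as CCAAT, any 9 bases and CCACG, and ERSE-II as ATTGG, any 1 base and CCACG. Capitals mark the element, and each sequence runs 5′ to 3′ on the strand of its gene, so an element on the opposite strand appears as its reverse complement.
HSPA5 (ERSE, chr9:125241371-125241429, minus strand): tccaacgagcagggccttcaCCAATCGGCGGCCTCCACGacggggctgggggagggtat
HSP90B1 (ERSE, chr12:103930211-103930239, plus strand): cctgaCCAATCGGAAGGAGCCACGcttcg
HSP90B1 (ERSE on the opposite strand, chr12:103930316-103930344, plus strand): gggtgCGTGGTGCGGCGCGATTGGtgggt
XBP1 (ERSE, chr22:28800598-28800626, minus strand): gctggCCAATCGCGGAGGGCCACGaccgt
CALR (ERSE on the opposite strand, chr19:12938364-12938422, plus strand): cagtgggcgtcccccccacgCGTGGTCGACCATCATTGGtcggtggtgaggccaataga
SDF2L1 (ERSE-II on the opposite strand, chr22:21642094-21642144, plus strand): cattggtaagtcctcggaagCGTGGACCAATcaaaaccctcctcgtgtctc
HERPUD1 (ERSE-II, chr16:56932020-56932040, plus strand): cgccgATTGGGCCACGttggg
The ERSE letters were found in 4 of the 10 genes and in 26 of 35116 promoter windows of this length (0.0740%). Those of ERSE-II were found in 2 of the 10 genes and in 18 windows (0.0513%). The element nearest its start was that of XBP1, 52 to 34 bases before it (positions -52 to -34), and that of HSPA5 lay at positions -66 to -48. A CCAAT box, which lies inside each ERSE and ERSE-II, was present upstream of all 10 genes but also in 11240 of the windows, and the core TGACGTGG of another element, UPRE, in 0.612% of windows and in none of the 10 genes. These elements were first described in promoters of this gene class, so their presence is background and not a result.

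All 10 genes passed the low-count filter that left 16076 genes to test. Libraries held 32153866 to 56618281 counts, and the 10 genes together took 0.232% to 0.289% of them. Replicates of a group correlated at 0.990 to 0.993 over genes (log2 CPM). Any 2 of the 24 libraries correlated at 0.981 to 0.993, so this measure says little about single libraries. A chi-square of replicate counts per degree of freedom is larger where replicates differ more. It also grows with depth and weighs abundant genes most, so it does not by itself rank the groups. It ran from 3.57 with ruxolitinib at 48 h to 15.8 with momelotinib at 4 h. All 9 erythroid and all 7 megakaryocyte markers listed exceeded 1 CPM in HEL cells. Of 7 plasma cell markers, a cell type with a large secretory load, PRDM1 alone exceeded 1 CPM, the list summed to 1.74 to 3.30 CPM per library, and IGKC was at 0 counts throughout. CD79A alone of 5 lymphocyte markers and KRT18 alone of 6 fibroblast and epithelial markers exceeded 1 CPM.

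Positions are those of the GENCODE 29 annotation of GRCh38. HSPA5 is at chr9:125234853-125241330, HSP90B1 at chr12:103930107-103953645, DNAJB9 at chr7:108569568-108574850, PDIA4 at chr7:149003062-149028641 and SDF2L1 at chr22:21642261-21644298. XBP1 is at chr22:28794555-28800597, HERPUD1 at chr16:56932048-56944863, CALR at chr19:12938578-12944489, DNAJC3 at chr13:95677139-95794989 and ERN1 at chr17:64039142-64130819.

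Per length of transcript, the lectin chaperone CALR was the most abundant of the 10, at a median of 432 CPM per kb of exon over 24 libraries. HSPA5, the Hsp70 chaperone BiP that holds the stress sensors inactive, followed at 119 CPM per kb, and HSP90B1, the Hsp90 family chaperone GRP94, at 111. HSPA5 and HSP90B1, neighbours in this order, were not separated by the spread over libraries. PDIA4, a protein disulphide isomerase, had a median of 37.7, SDF2L1, a partner of BiP and its co-chaperones, 33.2, and XBP1 31.9 CPM per kb, levels close to each other. DNAJC3, a BiP co-chaperone that also inhibits PERK, had 17.4 CPM per kb. The least abundant were HERPUD1, a membrane component of endoplasmic reticulum associated degradation, at 4.80, ERN1 at 2.56 and the BiP co-chaperone DNAJB9 at 2.09 CPM per kb. DNAJB9 rested on 134 to 367 counts a library, and its fold changes had the largest SE of the 10. In GENCODE 29, 121 exon bases of HSP90B1 overlap C12orf73 and 183 exon bases of DNAJB9 overlap PNPLA8 or THAP5, all on the opposite strand, and the strand setting of the counts is not given in the sources used here, so reads from those bases cannot be told apart.

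**Figure D1:**
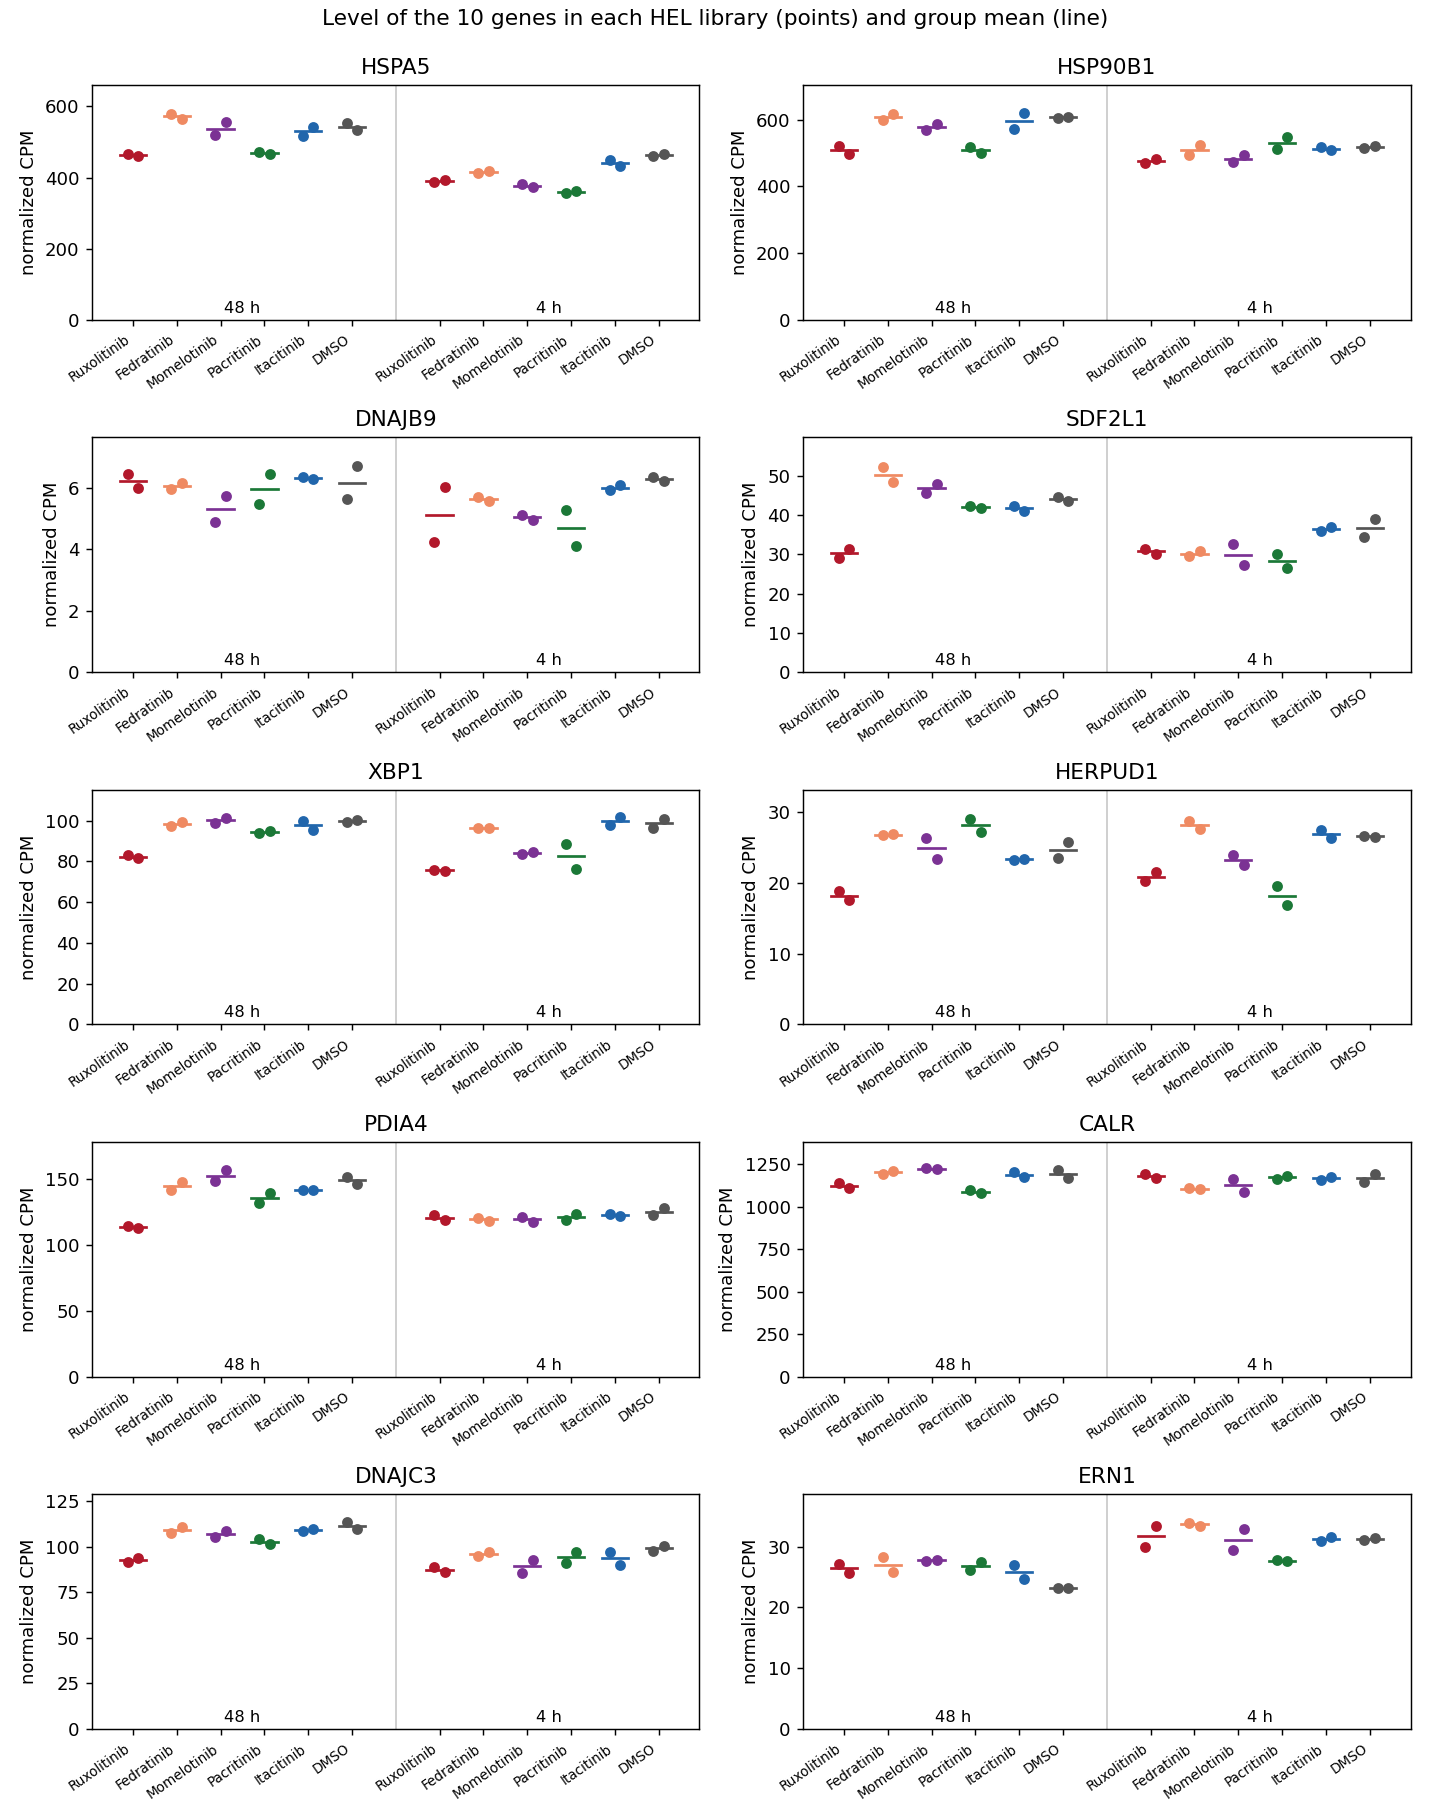
Normalized read counts (CPM after TMM scaling, vertical axes from 0) of each of the 10 genes in every library (points, 2 per group) with the group mean (line), inhibitors left of DMSO and 48 h left of 4 h. SDF2L1 at 48 h stood at 28.96 and 31.4 CPM with ruxolitinib, below 44.5 and 43.7 CPM with DMSO, and CALR stayed between 1082 and 1227 CPM in every library.

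The range over groups differed between the genes. The highest group mean was 1.77 times the lowest for SDF2L1, 1.59 times for HSPA5, 1.55 times for HERPUD1 and 1.45 times for ERN1. CALR had the narrowest range of the 10. HSPA5 and SDF2L1 were both highest with fedratinib at 48 h and lowest with pacritinib at 4 h. All values that follow are CPM after TMM scaling, and fold changes are log2 ratios with their SE. In these bulk cultures fewer cells of a kind and less RNA per cell cannot be told apart.

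The question of the 4 h libraries is what each inhibitor does early. HSPA5 was lower at 4 h with ruxolitinib, fedratinib, momelotinib and pacritinib, and so was SDF2L1. XBP1 was lower with ruxolitinib, momelotinib and pacritinib, and HERPUD1 with ruxolitinib and pacritinib. No gene of the 10 rose at 4 h with any inhibitor by this test, and with itacitinib none passed it in either direction. The 5 comparisons share the same 2 DMSO libraries.

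HSPA5 read 386 and 393 CPM in ruxolitinib libraries, 413 and 418 CPM in fedratinib libraries and 382 and 373 CPM in momelotinib libraries. It read 357 and 361 CPM in pacritinib libraries and 448 and 433 CPM in itacitinib libraries, against 462 and 467 CPM in DMSO libraries. Every inhibitor library at 4 h lay below both DMSO libraries, with pacritinib lowest and itacitinib nearest to DMSO. The log2 fold change was -0.37 ± 0.04 with pacritinib (a change of -22.6%, adjusted p = 4.24e-08, edgeR's quasi-likelihood test with Benjamini-Hochberg adjustment over 16076 genes). It was -0.30 ± 0.04 with momelotinib (adjusted p = 1.10e-05) and -0.25 ± 0.04 with ruxolitinib (adjusted p = 9.01e-05). These 3 calls held in all 4 fits that left out a library and in all 7 other settings. The fedratinib change of -0.16 ± 0.04 had an adjusted p of 0.0460 and passed in 0 of the 4 fits that left out a library, in which its adjusted p was 0.123 to 0.324. It also missed the threshold with no low-count filter (0.0512) and with the 4 h libraries fitted alone (0.0934).

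SDF2L1 stood at 31.2 and 30.2 CPM in ruxolitinib libraries, 29.5 and 30.7 CPM in fedratinib libraries, 32.5 and 27.1 CPM in momelotinib libraries and 30.2 and 26.5 CPM in pacritinib libraries, against 34.5 and 38.8 CPM in DMSO libraries. Its 8 libraries with these inhibitors lay below both DMSO libraries, while itacitinib libraries, at 36.0 and 37.0 CPM, lay between them. The changes ran from -0.38 ± 0.08 with pacritinib (adjusted p = 2.88e-04) over -0.30 ± 0.08 with momelotinib and -0.29 ± 0.08 with fedratinib to -0.26 ± 0.08 with ruxolitinib (adjusted p = 0.0276). The pacritinib call held whichever library was left out. Both the ruxolitinib and the fedratinib call were lost without DMSO replicate 2 or without either library of the inhibitor (adjusted p up to 0.422 and 0.544), and with the 4 h libraries fitted alone (0.0739 and 0.122), and the momelotinib call without DMSO replicate 2 or momelotinib replicate 2 (up to 0.298).

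XBP1, the transcription factor message that IRE1 splices, fell to 75.6 and 75.5 CPM with ruxolitinib, against 96.5 and 101 CPM with DMSO. That is a log2 fold change of -0.39 ± 0.05 (a change of -23.4%, adjusted p = 4.66e-06), the largest of the 10 genes with ruxolitinib at 4 h, and it held in all 4 fits that left out a library. With momelotinib, XBP1 read 83.7 and 84.7 CPM (-0.23 ± 0.05, adjusted p = 0.00548), a call lost without DMSO replicate 2 (adjusted p = 0.122). Pacritinib libraries read 88.7 and 76.4 CPM (-0.26 ± 0.05, adjusted p = 3.15e-04), and this call depended on pacritinib replicate 2 (0.0677 without it). With fedratinib the values were 96.4 and 96.6 CPM and with itacitinib 97.8 and 102 CPM, both pairs overlapping DMSO.

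HERPUD1 showed the largest change at 4 h, with 19.5 and 16.8 CPM in pacritinib libraries against 26.6 and 26.4 CPM in DMSO libraries. The log2 fold change was -0.55 ± 0.08 (a change of -31.5%, adjusted p = 2.71e-06). With ruxolitinib it read 20.2 and 21.5 CPM, a change of -0.35 ± 0.08 (adjusted p = 0.00356) that was lost without ruxolitinib replicate 1 (adjusted p = 0.0680). Momelotinib libraries, at 23.8 and 22.5 CPM, also lay below DMSO but did not pass (-0.20 ± 0.08, adjusted p = 0.156). Those of fedratinib, at 28.6 and 27.5 CPM, lay above DMSO without passing (0.08 ± 0.08, adjusted p = 0.702).

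The remaining genes moved less at 4 h. DNAJC3 read 88.8 and 86.1 CPM with ruxolitinib against 97.6 and 101 CPM with DMSO (-0.18 ± 0.05, adjusted p = 0.0189), a call lost without DMSO replicate 2 or either ruxolitinib library (adjusted p up to 0.210) and with the 4 h libraries fitted alone (0.0584). DNAJB9 read 5.28 and 4.09 CPM with pacritinib against 6.34 and 6.22 CPM with DMSO (-0.42 ± 0.15, adjusted p = 0.0305). That call was lost without either DMSO library or pacritinib replicate 2 (adjusted p up to 0.365) and with DESeq2 (adjusted p = 0.0645). The abundant folding enzymes HSP90B1, PDIA4 and CALR passed with no inhibitor at 4 h, and their log2 fold changes lay between -0.12 and 0.03. ERN1 ran from -0.17 ± 0.07 with pacritinib (adjusted p = 0.0633) to 0.11 ± 0.07 with fedratinib.

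Against the whole transcriptome, 5 of 10 genes passed with ruxolitinib at 4 h, all lower, where 8.47% of tested genes passed and 5.04% passed as lower. With momelotinib 3 of 10 passed, all lower, against 6% of tested genes, 3.79% as lower. With fedratinib 2 of 10 passed, both lower, against 1.59%, 0.97% as lower. With pacritinib 5 of 10 passed, all lower, but 30.6% of tested genes passed there and 17.4% as lower. For the 10 genes the median log2 fold change was -0.22 with both ruxolitinib and pacritinib, -0.17 with momelotinib, -0.06 with fedratinib and -0.01 with itacitinib. Over all tested genes the median lay between -0.0042 and 0.0066 in these comparisons. With itacitinib, edgeR called 0 of 10 at 4 h, 0 had an unadjusted p under 0.05 and DESeq2 called 0, against 0.778% of tested genes called. RN7SL transcripts, noncoding RNAs of the particle that targets new proteins to this compartment, made up 2.80% to 3.98% of the counts in inhibitor libraries at 4 h and 2.42% and 2.52% with DMSO. Mitochondrial rRNA made up 0.0141% to 0.0611% in inhibitor libraries and 0.0181% and 0.00715% with DMSO. Their part in the 4 h results was not tested beyond the following fit. With protein-coding genes fitted alone, the calls at 4 h numbered 5 with ruxolitinib, 2 with fedratinib, 3 with momelotinib, 5 with pacritinib and 0 with itacitinib.

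**Figure D2:**
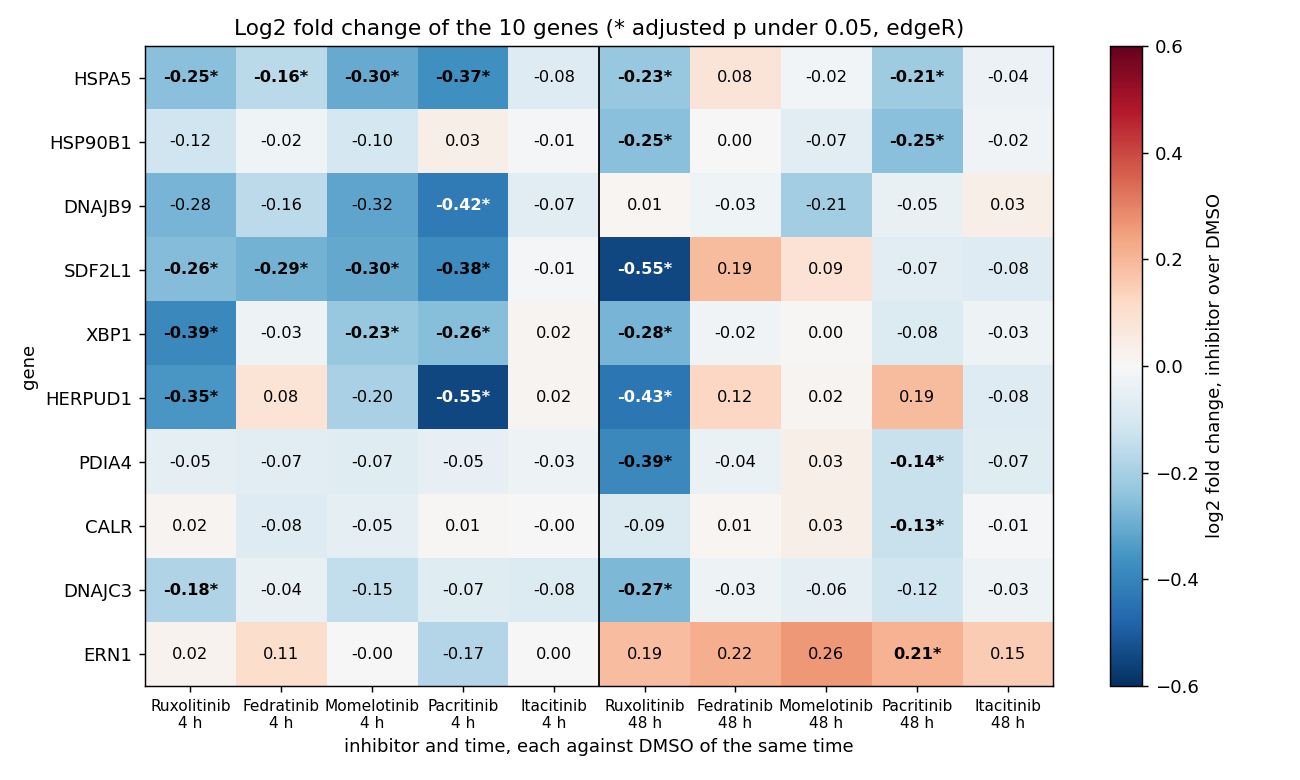
Log2 fold change (colour and number) of the 10 genes (rows) for each inhibitor against DMSO of the same time (columns), from edgeR, with an asterisk where the adjusted p is under 0.05. The calls at 4 h lie in 4 of the 5 inhibitor columns, and those at 48 h lie in the ruxolitinib and pacritinib columns.

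At 48 h calls came from ruxolitinib and pacritinib. With ruxolitinib, 7 of the 10 genes were lower: HSPA5, HSP90B1, SDF2L1, XBP1, HERPUD1, PDIA4 and DNAJC3. With pacritinib, HSPA5, HSP90B1, PDIA4 and CALR were lower and ERN1 was higher. Fedratinib, momelotinib and itacitinib gave no call at 48 h.

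SDF2L1 changed most with ruxolitinib at 48 h. It read 28.96 and 31.4 CPM with ruxolitinib against 44.5 and 43.7 CPM with DMSO, a log2 fold change of -0.55 ± 0.08 (a change of -31.5%, adjusted p = 1.18e-06). Fedratinib libraries, at 52.1 and 48.4 CPM, and momelotinib libraries, at 45.5 and 48.0 CPM, lay above DMSO, but neither passed (0.19 ± 0.07, adjusted p = 0.116, and 0.09 ± 0.07, adjusted p = 0.631). The fedratinib rise passed when the 48 h libraries were fitted alone (adjusted p = 0.0379). Pacritinib libraries read 42.3 and 41.7 CPM and itacitinib libraries 42.4 and 41.1 CPM.

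HERPUD1 stood at 18.8 and 17.6 CPM with ruxolitinib against 23.5 and 25.7 CPM with DMSO at 48 h (-0.43 ± 0.08, adjusted p = 1.07e-04). In pacritinib libraries it read 28.97 and 27.2 CPM, above both DMSO libraries, but did not pass (0.19 ± 0.08, adjusted p = 0.0872). Ruxolitinib and pacritinib libraries thus lay on opposite sides of DMSO for this degradation component. PDIA4, the disulphide isomerase, had 115 and 113 CPM with ruxolitinib against 151 and 147 CPM with DMSO (-0.39 ± 0.05, a change of -23.6%, adjusted p = 6.39e-08). With pacritinib PDIA4 read 132 and 139 CPM (-0.14 ± 0.05, adjusted p = 0.0374), a call lost without either DMSO library or pacritinib replicate 1 (adjusted p up to 0.266) and with no low-count filter (0.0942).

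Both major chaperones were lower with both drugs. HSPA5 read 467 and 462 CPM with ruxolitinib and 471 and 465 CPM with pacritinib, against 553 and 533 CPM with DMSO. The changes were -0.23 ± 0.04 (adjusted p = 1.05e-04) and -0.21 ± 0.04 (adjusted p = 4.53e-04). HSP90B1 read 522 and 498 CPM with ruxolitinib and 517 and 502 CPM with pacritinib, against 605 and 609 CPM with DMSO (-0.25 ± 0.05 with each, adjusted p = 9.02e-05 and 1.80e-04). Libraries of the treated and control groups did not overlap for either gene. Fedratinib left HSPA5 at 579 and 565 CPM, above both DMSO libraries without passing (0.08 ± 0.04, adjusted p = 0.324).

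XBP1 stood at 83.0 and 81.6 CPM with ruxolitinib against 99.4 and 100.2 CPM with DMSO at 48 h (-0.28 ± 0.05, adjusted p = 1.38e-04). The co-chaperone DNAJC3 stood at 91.4 and 93.6 CPM against 114 and 109.6 CPM (-0.27 ± 0.05, adjusted p = 1.00e-04). All 7 ruxolitinib calls at 48 h held in the 4 fits that left out a library and in the 7 other settings. CALR read 1098 and 1082 CPM with pacritinib against 1219 and 1173 CPM with DMSO (-0.13 ± 0.04, a change of -8.85%, adjusted p = 0.0197), a call lost without DMSO replicate 1 or either pacritinib library (adjusted p up to 0.157). With ruxolitinib CALR read 1139.7 and 1109 CPM and did not pass (-0.09 ± 0.04, adjusted p = 0.114), although DESeq2 called it (adjusted p = 0.0277). DNAJB9 passed with no inhibitor at 48 h.

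ERN1, the IRE1 sensor itself, went the other way. It had 26.1 and 27.5 CPM with pacritinib against 23.2 and 23.3 CPM with DMSO at 48 h (0.21 ± 0.07, adjusted p = 0.0478), a call lost whichever of the 4 libraries was left out (adjusted p 0.103 to 0.282), with DESeq2 (0.0627) and with no low-count filter (0.102). All 10 inhibitor libraries at 48 h, between 24.7 and 28.3 CPM, lay above both DMSO libraries. The log2 fold changes were 0.19 with ruxolitinib (adjusted p = 0.0632), 0.22 with fedratinib (0.0628), 0.26 with momelotinib (0.0579) and 0.15 with itacitinib (0.420), and none of these passed. The momelotinib change passed with DESeq2 (0.0465) and in 3 further settings. Since the 5 comparisons use the same 2 DMSO libraries, they are not independent.

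With ruxolitinib at 48 h, 25.7% of tested genes passed and 13.2% passed as lower, beside the 7 of 10 that passed as lower. With pacritinib 18.3% passed, 8.26% as higher and 10.1% as lower, beside 1 and 4 of 10. Across the 10 genes the median at 48 h was -0.26 with ruxolitinib, 0.0064 with fedratinib, 0.0100 with momelotinib, -0.10 with pacritinib and -0.03 with itacitinib. Those of all tested genes lay between -0.0049 and 0.0065. For the counts of 0, edgeR gave an unadjusted p under 0.05 to 2 genes with fedratinib, 1 with momelotinib and 1 with itacitinib, and DESeq2 called 0, 1 and 0. The share of all tested genes called was 7.7%, 1.94% and 0.442% in the same order.

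Markers of lineage and other cell types moved in the same comparisons. Each count of markers is to be read against the share of all tested genes called in either direction. At 48 h that share was 25.7% with ruxolitinib, 7.7% with fedratinib, 1.94% with momelotinib, 18.3% with pacritinib and 0.442% with itacitinib. At 4 h it was 8.47%, 1.59%, 6%, 30.6% and 0.778% in the same order. The 9 erythroid markers summed to 5825 and 5788 CPM with ruxolitinib at 48 h against 3389 and 3401 CPM with DMSO, and all 9 were higher by the test. At 48 h 4 of the 9 were also higher with fedratinib, 3 with pacritinib, 2 with itacitinib and 1 with momelotinib. At 4 h 5 were higher with pacritinib, 3 with momelotinib and 2 with ruxolitinib, and no erythroid marker passed as lower with any of the 5 inhibitors at either time. Of the 7 megakaryocyte markers, 3 were higher and 3 lower with ruxolitinib at 48 h, and 1 was higher and 3 lower with pacritinib. At 4 h 2 were higher and 2 lower with ruxolitinib, 3 higher and 2 lower with pacritinib, 1 higher and 2 lower with momelotinib, and 1 lower with each of fedratinib and itacitinib, and at 48 h 2 were higher with fedratinib. The megakaryocyte list summed to 1409 and 1429 CPM with ruxolitinib and 1229 and 1222 CPM with pacritinib, against 1247 and 1240.1 CPM with DMSO at 48 h. The plasma cell list summed to 2.49 and 2.28 CPM with ruxolitinib against 3.07 and 2.67 CPM with DMSO at 48 h. Fedratinib, pacritinib and itacitinib libraries also lay below both DMSO libraries, while those of momelotinib read 2.20 and 3.30 CPM. The 1 plasma cell marker tested passed with no inhibitor. The lymphocyte list summed to 4.60 and 4.66 CPM with ruxolitinib and 3.42 and 4.02 CPM with pacritinib at 48 h, against 8.11 and 7.26 CPM with DMSO. Libraries of the other inhibitors also lay below both DMSO libraries. The fibroblast and epithelial list summed to 4.38 and 5.23 CPM with ruxolitinib and 5.02 and 6.86 CPM with pacritinib, against 9.85 and 10.3 CPM with DMSO at 48 h. Libraries of fedratinib, momelotinib and itacitinib, between 7.25 and 8.26 CPM at 48 h, also lay below both DMSO libraries. At that time 1 of the 2 tested lymphocyte markers was lower with each of ruxolitinib, fedratinib and pacritinib. Of the 4 tested fibroblast and epithelial markers, 1 was lower with each of ruxolitinib and pacritinib. RN7SL transcripts made up 3.92% and 3.99% of counts with ruxolitinib and 4.52% and 4.76% with pacritinib, against 3.05% and 3.36% with DMSO. Mitochondrial rRNA made up 0.0627% and 0.0584% with ruxolitinib and 0.128% and 0.115% with pacritinib, against 0.0586% and 0.0912% with DMSO. The part of these differences in the result was not tested, except that protein-coding genes alone gave 7 calls with ruxolitinib and 5 with pacritinib at 48 h.

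DMSO cultures also differed between the times, which sets the level against which each inhibitor is read. HSPA5, HSP90B1, SDF2L1, PDIA4 and DNAJC3 were higher at 48 h than at 4 h, and ERN1 was lower. HSPA5 stood at 553 and 533 CPM at 48 h against 462 and 467 CPM at 4 h (0.23 ± 0.04, adjusted p = 6.76e-04). HSP90B1 stood at 605 and 609 CPM against 514 and 523 CPM (0.23 ± 0.05, adjusted p = 0.00169), and PDIA4 at 151 and 147 CPM against 123 and 128 CPM (0.25 ± 0.05, adjusted p = 6.03e-04). In each of these chaperone genes both 48 h libraries lay above both 4 h libraries. ERN1 fell to 23.2 and 23.3 CPM at 48 h, against 31.1 and 31.4 CPM at 4 h (-0.43 ± 0.07, a change of -25.7%, adjusted p = 1.92e-04). The calls for SDF2L1 (0.26 ± 0.07) and DNAJC3 (0.17 ± 0.05) were lost in 3 and 4 of the 4 fits that left out a library (adjusted p up to 0.302 and 0.240), for SDF2L1 all but the one without DMSO 4 h replicate 2. The DNAJC3 call was also lost with no low-count filter (0.0554). In all 8.16% of tested genes passed, 4.04% higher and 4.12% lower, beside 5 and 1 of the 10. Their median was 0.10 and that of all tested genes 0.0049. Between the times RN7SL transcripts made up 3.05% and 3.36% of counts at 48 h against 2.42% and 2.52% at 4 h, and mitochondrial rRNA 0.0586% and 0.0912% against 0.0181% and 0.00715%. Their part in the result was not tested.

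Whether an inhibitor's change differed between the times was tested as the log2 fold change at 48 h minus that at 4 h, and 9 of 50 such tests passed, beside 6.62% of such tests over all genes. By inhibitor 8.72% of genes passed with ruxolitinib, 4.12% with fedratinib, 2.33% with momelotinib and 17.9% with pacritinib. HERPUD1 with pacritinib had the largest, 0.74 ± 0.11 (adjusted p = 1.57e-05): its fold change was 0.19 at 48 h and -0.55 at 4 h. PDIA4 with ruxolitinib differed by -0.33 ± 0.07 (adjusted p = 6.64e-04), with a fold change of -0.39 at 48 h and -0.05 at 4 h. HSP90B1 with pacritinib differed by -0.29 ± 0.07 (adjusted p = 0.00212), with -0.25 at 48 h and 0.03 at 4 h. These 3 held in all 8 fits that left out a library. HSPA5 and SDF2L1 differed with fedratinib (0.23 ± 0.06 and 0.47 ± 0.11) and with momelotinib (0.28 ± 0.06 and 0.39 ± 0.11). HSPA5 with fedratinib had a fold change of 0.08 at 48 h and -0.16 at 4 h, and with momelotinib -0.02 at 48 h and -0.30 at 4 h. With pacritinib SDF2L1 differed by 0.31 ± 0.11 and ERN1 by 0.38 ± 0.10. Of the 8 fits that left out a library, 7 kept ERN1 with pacritinib, which was lost without pacritinib 48 h replicate 2 (adjusted p = 0.0516). HSPA5 passed in 6 with momelotinib, lost without replicate 2 of DMSO or of momelotinib at 48 h (up to 0.0937), and in 3 with fedratinib, lost without replicate 2 of DMSO at either time, either fedratinib 4 h library or fedratinib 48 h replicate 1 (up to 0.141). SDF2L1 passed in 6 with fedratinib, lost without DMSO 4 h replicate 2 or fedratinib 48 h replicate 1 (up to 0.0965), and in 2 with each of momelotinib and pacritinib (up to 0.285 and 0.289). Those 2 fits were, for momelotinib and pacritinib alike, the ones without replicate 1 of DMSO or of the inhibitor at 4 h. SDF2L1 with pacritinib also missed the threshold with DESeq2 (0.0661) and with DESeq2-type size factors (0.0502). For HSPA5 and XBP1 with ruxolitinib the difference was not called and had 95% intervals of -0.10 to 0.15 and -0.05 to 0.26. With itacitinib edgeR called 0 of 10, 0 at an unadjusted p under 0.05, and DESeq2 called 0, against 0.0124% of tested genes called.

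**Figure D3:**
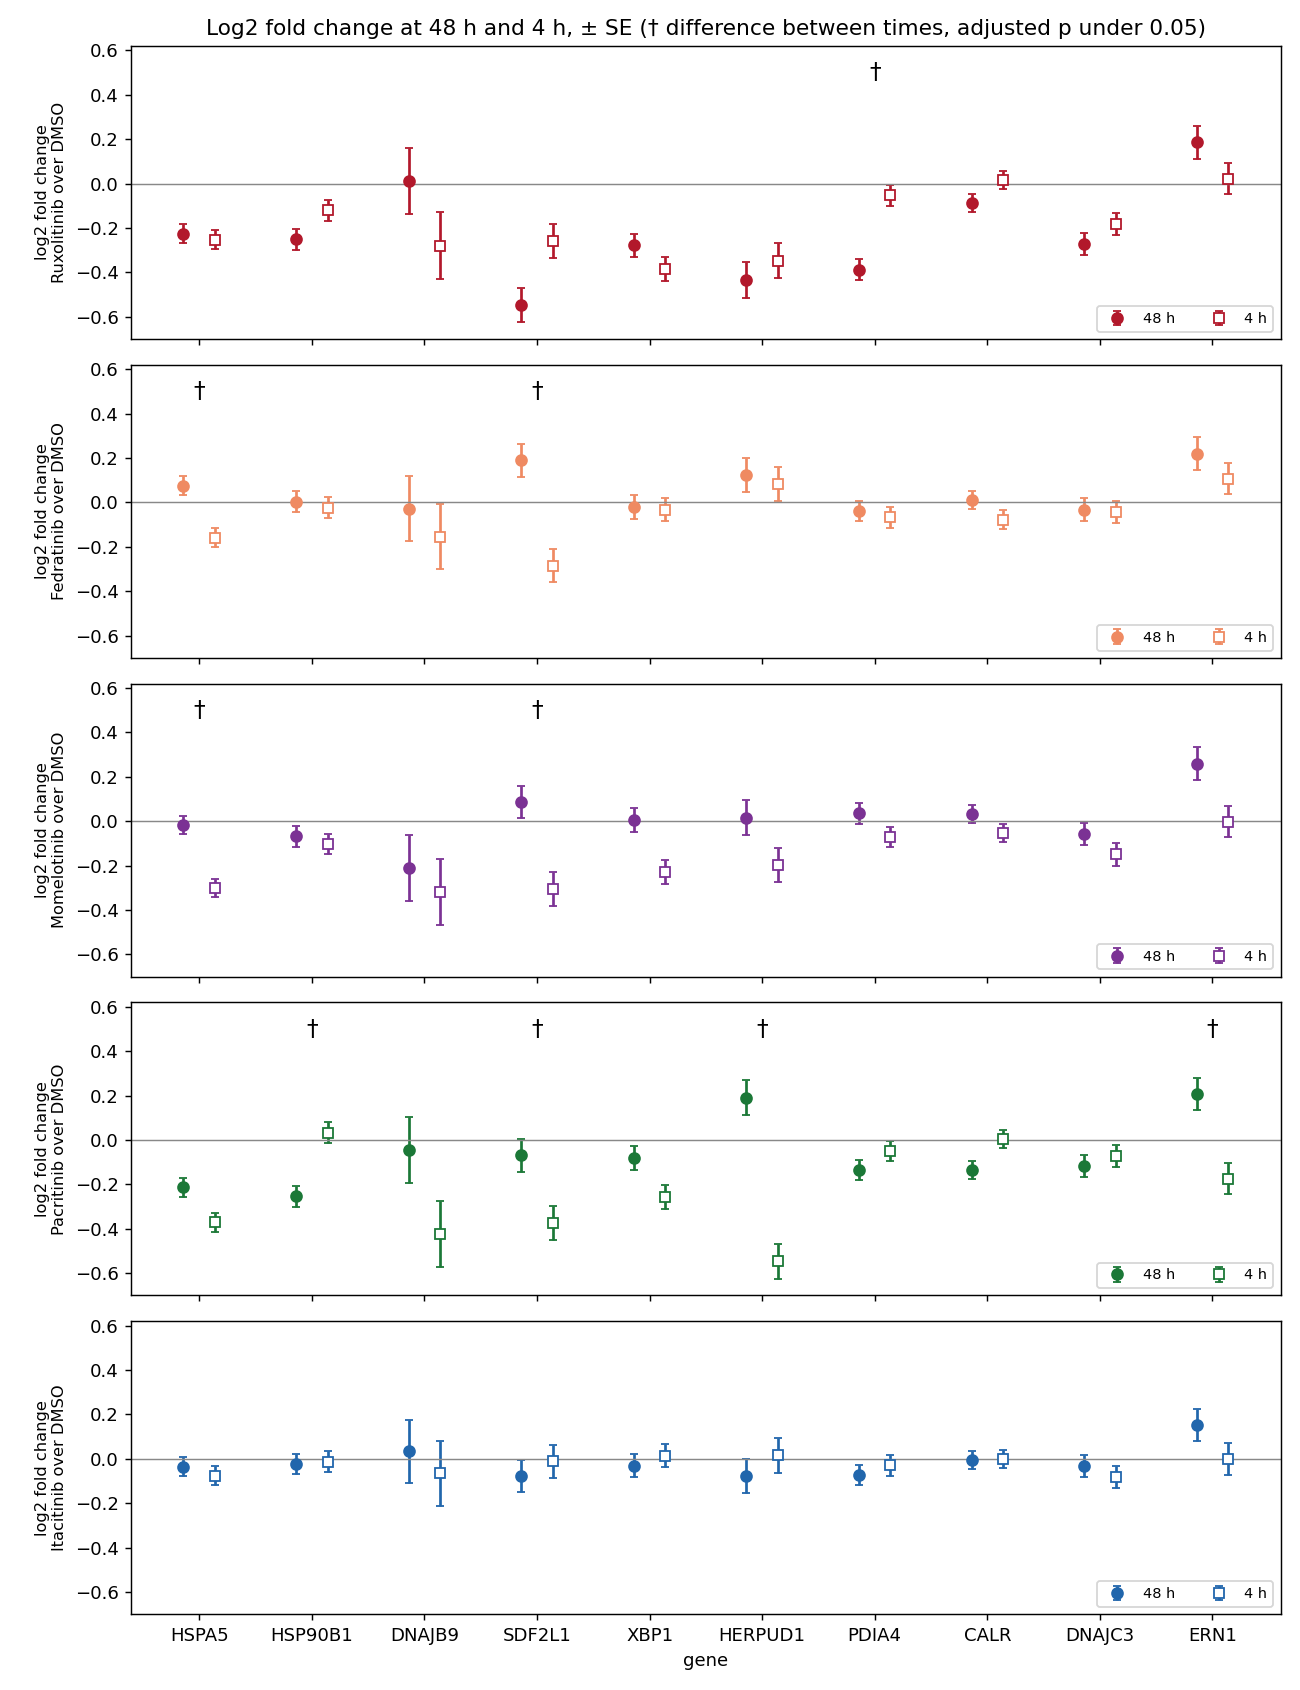
Log2 fold change against DMSO at 48 h (filled circles) and 4 h (open squares) with its SE, for each inhibitor (panels) and gene (horizontal axis). A dagger marks a difference between the times with an adjusted p under 0.05, as for HERPUD1 with pacritinib at 0.19 and -0.55.

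The inhibitors were also set against each other at the same 500 nM and the same time, in 10 pairs a time. Over the 10 genes, 22 of 100 tests passed at 4 h and 40 of 100 at 48 h, beside 11.9% and 13.7% of the same tests over all genes. With p-values adjusted over all genes and all 10 pairs of a time together, 23 and 40 passed. Ruxolitinib and itacitinib both contain a pyrrolopyrimidine ring system and differ in the groups attached to it. At 48 h, 7 of 10 genes were lower with ruxolitinib than with itacitinib (10.2% of tested genes were), and at 4 h 4 of 10 were (3.61% of tested genes). SDF2L1 averaged 30.2 CPM with ruxolitinib and 41.7 CPM with itacitinib at 48 h (-0.47 ± 0.08, adjusted p = 1.43e-05). PDIA4 averaged 114 CPM with ruxolitinib and 142 CPM with itacitinib at that time (-0.32 ± 0.05, adjusted p = 2.85e-06). At 4 h the largest difference between these 2 compounds was in XBP1, at 75.5 CPM with ruxolitinib and 99.7 CPM with itacitinib (-0.40 ± 0.05, adjusted p = 4.02e-06).

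No difference between ruxolitinib and itacitinib was called in ERN1, CALR or DNAJB9 at either time. For ERN1 the difference was 0.03 at 48 h (95% interval -0.11 to 0.18) and 0.02 at 4 h (-0.12 to 0.17). For CALR it was -0.08 at 48 h (-0.16 to 0.0011) and 0.02 at 4 h (-0.07 to 0.10). DNAJB9, with its low counts, had wide intervals of -0.32 to 0.27 at 48 h and -0.52 to 0.10 at 4 h, and the second holds the size of the XBP1 difference.

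At 48 h ruxolitinib libraries were also lower than those of fedratinib in 7 genes, of momelotinib in 8 and of pacritinib in 5, where 10.5%, 10.7% and 11.8% of tested genes were lower. The widest gap of any pair was SDF2L1 with ruxolitinib against fedratinib, at -0.74 ± 0.08 (adjusted p = 3.86e-09). Ruxolitinib and pacritinib differed in HERPUD1 by -0.63 ± 0.08 at 48 h (adjusted p = 3.38e-07). In HSPA5 they did not differ by the test at 48 h (-0.01, 95% interval -0.10 to 0.07), and at 4 h ruxolitinib was higher by 0.12 ± 0.04 (adjusted p = 0.0398). ERN1 was also higher (14.5% of tested genes were) and HSP90B1 lower (11.1%) with ruxolitinib than with pacritinib at 4 h. Ruxolitinib was lower than fedratinib at 4 h in XBP1 and HERPUD1, where 2.12% of tested genes were.

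Fedratinib was higher than pacritinib, a macrocycle, in HSPA5, XBP1, HERPUD1 and ERN1 at 4 h (16.6% of tested genes). At 48 h it was higher in HSPA5, HSP90B1, SDF2L1 and CALR (6.48%). HERPUD1 carried the largest of these differences, at 28.1 CPM with fedratinib and 18.2 CPM with pacritinib at 4 h (0.63 ± 0.08, adjusted p = 3.02e-07). Momelotinib was higher than pacritinib in HSPA5, HSP90B1, PDIA4 and CALR at 48 h (4.76%). At 4 h momelotinib was higher than pacritinib in HERPUD1 (12.8%) and lower in HSP90B1 (7.96%). Against itacitinib at 4 h, HSPA5, SDF2L1 and XBP1 were lower with momelotinib (1.87%) and, together with HERPUD1, with pacritinib (16.6%). At 48 h HERPUD1 was higher (8.14%) and HSPA5, HSP90B1 and CALR were lower (7.47%) with pacritinib than with itacitinib, and SDF2L1 was higher with fedratinib than with itacitinib (3.47%).

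The other arms and compartments were read from 7 lists of related genes, 117 of which were tested. Each count is to be read against the share of all tested genes that passed in the same comparison: at 4 h 8.47% with ruxolitinib, 1.59% with fedratinib, 6% with momelotinib and 30.6% with pacritinib. At 48 h it was 25.7% with ruxolitinib, 7.7% with fedratinib and 18.3% with pacritinib, and between the times in DMSO 8.16%. In the PERK and ATF4 arm (16 of 18 tested), 10 genes rose with fedratinib at 48 h and 1 fell, while none of the 10 chaperone and UPR genes passed. CHAC1, a glutathione-degrading enzyme, rose by 1.78 ± 0.17 and PHGDH, the first enzyme of serine synthesis, by 1.02 ± 0.07, whereas ERO1A, an oxidase of the endoplasmic reticulum, changed by -0.41. With pacritinib at 48 h 10 of 16 rose and no other passed, with CHAC1 at 1.54 ± 0.18 and ASNS, asparagine synthetase, at 0.82 ± 0.12. With ruxolitinib at 48 h 8 of 16 fell and 1 rose: DDIT4, an inhibitor of mTOR signalling, changed by -1.09 ± 0.15, TRIB3 by -0.59 ± 0.08 and PPP1R15A, a phosphatase subunit that restores translation, by 0.23 ± 0.05. The median log2 fold change of this arm at 48 h was -0.40 with ruxolitinib, 0.41 with fedratinib and 0.25 with pacritinib. At 4 h 7 rose and 5 fell with pacritinib, among them ATF3 (-1.44 ± 0.19) and DDIT3 (-0.81 ± 0.11), 1 rose and 4 fell with ruxolitinib, 3 rose with fedratinib and 1 fell with momelotinib. In DMSO libraries 12 of 16 were lower at 48 h than at 4 h, with ATF3 at -3.27 ± 0.23.

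**Figure D4:**
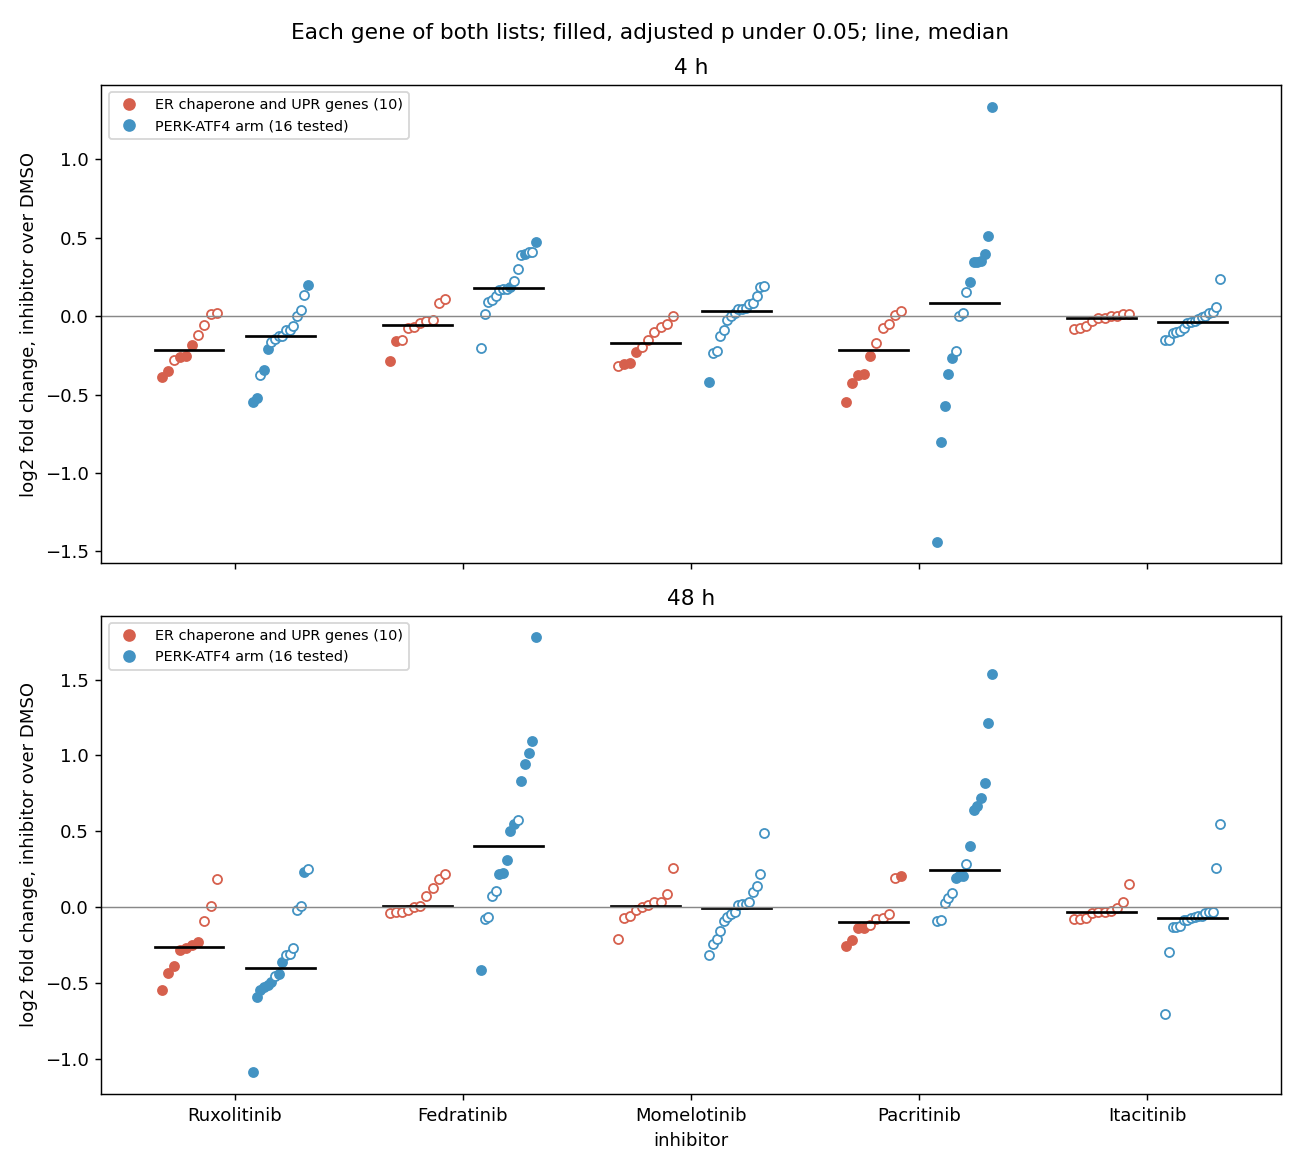
Log2 fold change of each of the 10 chaperone and UPR genes (red) and the 16 tested genes of the PERK and ATF4 arm (blue) for each inhibitor against DMSO at 4 h (top) and 48 h (bottom), filled where the adjusted p is under 0.05, with the median as a line. With fedratinib at 48 h the median of the PERK and ATF4 arm was 0.41 and that of the 10 genes 0.0064.

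Among 19 other chaperones and foldases, 8 fell with ruxolitinib at 48 h, including MANF, a secreted partner of BiP (-0.44 ± 0.05), the oxidase ERO1B (-0.50 ± 0.10) and the reductase DNAJC10 (-0.41 ± 0.06). MANF also fell at 4 h with ruxolitinib (-0.40 ± 0.05), momelotinib (-0.25 ± 0.05) and pacritinib (-0.41 ± 0.05), and was higher in DMSO at 48 h than at 4 h by 0.47 ± 0.05. With pacritinib at 4 h 3 of the 19 rose and 3 fell, a share near the 30.6% of all tested genes, with ERP29 at 0.26 ± 0.05 and ERO1B at -0.62 ± 0.10, and at 48 h 1 rose (TXNDC11, 0.26 ± 0.08) and 2 fell. With fedratinib at 48 h HYOU1 was higher (0.14 ± 0.04) and ERO1B lower (-0.36 ± 0.10). The sensors and their processing enzymes (11 of 12 tested) included EIF2AK3, which encodes PERK, at -0.84 ± 0.10 with pacritinib at 4 h, and ATF6B at 0.20 ± 0.05 there and at 0.26 ± 0.05 with ruxolitinib at 48 h. In that list 2 rose with ruxolitinib at 4 h, where 8.47% of all tested genes passed. With ruxolitinib at 48 h 2 rose, a share below the 25.7% of all tested genes. With pacritinib 2 rose and 1 fell at 4 h and 1 rose at 48 h, shares below the 30.6% and 18.3% of all tested genes. In DMSO 1 was higher at 48 h than at 4 h, a share near the 8.16% of all tested genes.

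Of 18 degradation genes, 5 fell with pacritinib at 4 h, where 30.6% of all tested genes passed and 17.4% as lower, with the mannosidase-like EDEM3 at -0.25 ± 0.06 and SELENOS at -0.29 ± 0.08. At 48 h 4 rose and 1 fell with pacritinib (18.3% of all tested genes passed), with the ubiquitin ligase SYVN1 at 0.27 ± 0.06. With ruxolitinib 3 rose and 1 fell, a share below the 25.7% of all tested genes, and 1 rose with fedratinib. With ruxolitinib at 4 h 1 rose and 1 fell. Of 21 translocon, signal peptidase and glycosylation genes, 5 rose and 1 fell with pacritinib at 4 h, a share below the 30.6% of all tested genes. With ruxolitinib at 48 h 4 fell, such as the translocon-associated SSR2 (-0.28 ± 0.06), and 1 rose, a share below the 25.7% of all tested genes. Of that list 1 rose and 1 fell with each of fedratinib and pacritinib at 48 h, 1 fell with ruxolitinib at 4 h and 3 were lower in DMSO at 48 h than at 4 h. Of 18 coat and retrieval genes, 4 fell and 1 rose with ruxolitinib at 48 h, a share near the 25.7% of all tested genes, with the coat subunit SEC24D at -0.42 ± 0.07 and MCFD2, a cargo receptor subunit, at -0.35 ± 0.05. In each other comparison at most 2 of these 18 passed in 1 direction.

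Of 14 heat shock genes of the cytosol and mitochondria, 8 fell and 1 rose with pacritinib at 4 h, where 30.6% of all tested genes passed. At that time 6 fell with momelotinib (6% of all tested genes passed), 4 with fedratinib (1.59%) and 3 with ruxolitinib (8.47%). HSPA8, the constitutive cytosolic Hsp70, averaged 1489 CPM with pacritinib and 2999 CPM with DMSO at 4 h (-1.01 ± 0.04, adjusted p = 2.00e-17). It changed by -0.53 ± 0.04 with momelotinib, -0.46 ± 0.04 with ruxolitinib and -0.30 ± 0.04 with fedratinib. HSPA1B changed by -1.77 ± 0.07 with pacritinib, but it is nearly identical to HSPA1A and the split of reads between them is uncertain. At 48 h 5 fell with pacritinib (18.3% of all tested genes passed) and 3 with ruxolitinib, a share below the 25.7% of all tested genes. With fedratinib 2 fell and 1 rose at 48 h (7.7%), and in DMSO 4 were higher at 48 h than at 4 h (8.16%). Over the 7 lists together, edgeR called 0 of 117 with itacitinib at 4 h, 0 with itacitinib at 48 h and 0 with momelotinib at 48 h. In the same order 10, 11 and 11 had an unadjusted p under 0.05 and DESeq2 called 0, 1 and 0.

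The genes whose log2 CPM over the 24 libraries was most like that of HSPA5, out of 9435 ranked, were MANF (Pearson r = 0.96), VSIR (0.93), RSAD1 (0.92), HSPA8 (0.92) and TFCP2L1 (0.92). Most like ERN1 were DDIT3 (0.90), CYP26B1 (0.85), TNRC18 (0.83), NPLOC4 (0.82) and MMP14 (0.82). Among the 10 genes, the 45 pairwise correlations ran from -0.67 to 0.90 with a median of 0.43, and 21 were above 0.5. ERN1 was negatively correlated with HSP90B1 (-0.67), DNAJC3 (-0.64) and HSPA5 (-0.59). These values describe 24 libraries that share 12 groups, 2 times and their depths, and carry no test.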

How the data were processed

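RNA of HEL cells was extracted as total RNA and sequenced, 24 libraries in 12 groups of 2. The deposited values are whole read counts per gene. Per the submitters' processing notes, the authors used bcl2fastq, STAR 2.5.1a, genome build GRCh38 and edgeR. For the counting tool, annotation and strand setting, nothing is given in the sources used here.

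The count table held 34343 rows. After merging 130 repeated gene identifiers with identical counts, 34213 genes remained, and edgeR's filterByExpr kept 16076. The counts of all 24 libraries were fitted together with edgeR 4.0.16 (R 4.3.3, limma 3.58.1), with TMM scaling, 1 mean per group and the quasi-likelihood test, Benjamini-Hochberg adjusted over all 16076 genes. Genes were called at an adjusted p under 0.05. Fits had 12 residual degrees of freedom. Levels are CPM after TMM scaling, and levels per kb use GENCODE 29 exon lengths. For inhibitor pairs, p-values were also adjusted over genes and pairs together. An adjustment over the listed genes alone had been planned and was not used. Alternatives were DESeq2 1.42.0, DESeq2-type size factors, other low-count filters, each time point alone, a replicate block, each library left out and, chosen after seeing the data, protein-coding genes alone. The fits were checked on simulated data.

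The 10 genes, the other gene lists and the tests were chosen with earlier results of these data known. All 10 genes are described. From each other list up to 3 called genes per direction and comparison, those with the largest change, could be named, as could the 5 genes most correlated with HSPA5 and with ERN1 out of those averaging 3 or more on the log2 CPM scale.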

Additional observations from a re-analysis of the deposited data

Results flagged for a closer look

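For 9 of 50 combinations of gene and inhibitor, the change against DMSO differed between 48 h and 4 h by edgeR's test. Over all genes 6.62% of such tests passed, with 17.9% for pacritinib, 8.72% for ruxolitinib, 4.12% for fedratinib, 2.33% for momelotinib and 0.0124% for itacitinib. Given as the log2 fold change at 48 h minus that at 4 h, the values with pacritinib were 0.74 for HERPUD1, 0.38 for ERN1, 0.31 for SDF2L1 and -0.29 for HSP90B1. With ruxolitinib PDIA4 had -0.33. With fedratinib SDF2L1 had 0.47 and HSPA5 0.23, and with momelotinib SDF2L1 had 0.39 and HSPA5 0.28. All 9 share the DMSO libraries of both times. Only HERPUD1 and HSP90B1 with pacritinib and PDIA4 with ruxolitinib held whichever library was left out, as given above.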

How the results depend on the processing

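In the comparisons with DMSO and between the times in DMSO, no direction of a called gene reversed under any alternative. The directions of calls between pairs of inhibitors were not checked in this way. With the libraries of 1 time point fitted alone, the number of the 10 genes called was 3 with ruxolitinib and 0 with fedratinib at 4 h, and 1 with each of fedratinib and momelotinib at 48 h. With no low-count filter it was 1 with fedratinib at 4 h and 3 with pacritinib at 48 h. With momelotinib at 48 h it was 1 with DESeq2, with a filter of at least 1 CPM in 6 libraries and with protein-coding genes only. The cause was not tested. Of 110 gene results, 106 kept their side of the threshold with DESeq2 and 110 with DESeq2-type size factors.

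Leaving out 1 library at a time gave 2 to 5 calls with ruxolitinib, 0 to 1 with fedratinib, 1 to 3 with momelotinib, 3 to 5 with pacritinib and 0 with itacitinib at 4 h. At 48 h it gave 7 with ruxolitinib, 2 to 3 with pacritinib and 0 with fedratinib, momelotinib and itacitinib. Counts were 4 to 5 for DMSO over time, 5 to 10 for differences between the times (5 without DMSO 48 h replicate 2), and 16 to 24 and 34 to 39 for inhibitor pairs at 4 h and 48 h. In these fits the lone library is assumed to vary like the other groups. They also have less power for every gene, so a lower count is not a result about the 10 genes. The share of all tested genes called is not given for the alternative fits.

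No pairing by replicate number was seen: 11 correlations of same-numbered deviations from group means lay between -0.0377 and 0.0413. They weigh weakly counted genes like all others, so they cannot decide whether libraries were paired. With the replicate block the calls were 5, 2, 3, 5 and 0 at 4 h and 7, 0, 0, 5 and 0 at 48 h, in the order ruxolitinib, fedratinib, momelotinib, pacritinib and itacitinib. They were 6 for DMSO over time, 9 for differences between the times, and 24 and 40 for inhibitor pairs.

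With 2 libraries a group, small changes can be missed, above all in DNAJB9, which had 134 to 367 counts a library.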
